A study of Mus musculus with 12 samples.

Results

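The 2 alleles of the series, a disrupted copy of Tet2 and the Akita mutation in Ins2, an insulin gene, were compared as a 2 by 2 layout, to ask for which genes their joint effect departed from the sum of the single effects. The layout was read from RNA-seq counts of lineage-negative bone marrow, the fraction from which cells bearing markers of mature blood lineages have been removed. Its members were the libraries whose column names match a labelled sample: 11 of the 12 samples of the series. They were 3 wild-type libraries (WT), 3 from mice labelled Tet2+/-, 2 labelled Ins2Akita/+ (here Akita) and 3 labelled Tet2+/-;Ins2Akita/+ (here the double mutant). All 4 groups were of the C57BL/6 strain. The labels give no age, no treatment, no time and no description of how the Tet2 allele was made. They also leave unsaid whether the libraries of a genotype stem from different mice, and a p-value here speaks only of the spread among libraries, which may be technical. The interaction of a gene was the difference between the double mutant and Tet2+/- minus the difference between Akita and WT, in log2 units. A value of 0 means that both alleles add up, and its sign is that of the departure. Of 31060 genes in the table, 15630 passed the low count filter over all 11 libraries and 15092 over the 8 libraries numbered 1 and 2.

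Tet2 encodes a dioxygenase that oxidises 5-methylcytosine, the first step of a route by which methyl groups leave DNA. Its loss in blood stem cells is known for a bias towards myeloid cells and for clonal haematopoiesis. The Akita allele is dominant: its misfolded insulin harms pancreatic beta cells and gives chronic high blood glucose, so that marrow cells, which do not make insulin, meet the allele through their surroundings. B lymphocytes are specified in marrow by the transcription factors Ebf1 and Pax5, dendritic cells present antigen on MHC class II molecules, and neutrophils mature through stages with different granule proteins.

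Total counts ran from 14814409 to 22600405 per library, at which 3 counts correspond to 0.133 to 0.203 CPM (counts relative to the raw library total; the levels below use totals scaled by TMM factors). The libraries numbered 3 stood apart: counts of mitochondrially encoded genes made up 3.43% of the WT library with that number, 4.46% of the Tet2+/- library and 9.76% of the double mutant library, against 1.36% to 1.94% in the other 8. No Akita library with that number was analysed here (1 column named like one matched no label), so over all libraries the contrast sets 3 groups that hold such a library against 1 that does not. Counts of called genes and list medians are therefore given for both sample sets, over all libraries and over the libraries numbered 1 and 2. Interactions of single genes are given for 1 or both of these sets. Maturing neutrophil genes were present throughout: the summed level of 26 such genes was 2793 to 85794 CPM over the 11 libraries, and that of 20 stem and progenitor genes was 498 to 1558 CPM, with none of the latter at 0 in any library.

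Tet2 itself (chr3:133463679-133545139, minus strand, GRCm38) was at 91.1, 128 and 45.1 CPM in WT, 18.9, 18.5 and 19.3 in Tet2+/-, 131 and 107 in Akita and 66.5, 108 and 34.1 in the double mutant. All 3 libraries labelled Tet2+/- lay below every other library, while those labelled as the double mutant overlapped WT. The interaction of Tet2 was 1.44 (SE 0.66) over all libraries and 2.099 (SE 0.35) over the libraries numbered 1 and 2 (edgeR adjusted p = 0.0682), an opposing departure that did not pass edgeR's test and that DESeq2 called over the libraries numbered 1 and 2. The RNA of this gene therefore set the Tet2+/- libraries apart from the rest and did not set the double mutant apart from WT. Within each number, the double mutant library was below the WT library. The 4 pseudogenes that earlier results of these data had tied to the Tet2 label went with it in both groups. They were chosen by that tie in these same data, so they are no independent check of the label. Pcna-ps2 was at 25.1 to 93.9 CPM in the 6 libraries labelled with the Tet2 allele and at 0.249 to 0.363 CPM in the other 5, and Atp6v0c-ps2 was at 27.2 to 49.1 against 0.0604 to 0.528 CPM. Gm9825 and Gm14292 had at most 2 counts in any library without that label, and 11.3 to 43.9 and 1.90 to 4.92 CPM in the libraries with it. Below, the groups are named by their labels, and the direction of each interaction rests on those labels. Ins2 was not analysed here.

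Over all libraries no gene passed edgeR's quasi-likelihood test at an adjusted p under 0.05 (0 of 15630, 0%), and 537 genes (3.44%) had an unadjusted p under 0.05, 279 with a positive interaction (1.79%) and 258 with a negative one (1.65%). DESeq2 called 60 of the 13788 genes it adjusted (0.435%), 31 positive (0.225%) and 29 negative (0.21%). Limma voom called 0, with 511 genes at an unadjusted p under 0.05. Without the low count filter edgeR called 3 genes, Akap12, Chst3 and Spib, and with the replicate number as a block it called 3, Akap12, Fcnb and Fcgr4. Over the libraries numbered 1 and 2 the test called 7 of 15092 genes (0.0464%), 4 of them negative (0.0265%: Akap12, Mybpc2, Spib and H2-Aa) and 3 positive (0.0199%: Cdk18, Fcnb and Eps8l1), and 1937 genes (12.8%) had an unadjusted p under 0.05, 1059 positive (7.02%) and 878 negative (5.82%). These 7 calls rested on 2 libraries a group and on the settings: the count was 0 with the replicate number as a block, 509 with DESeq2 (3.73% of the genes it adjusted, 2.16% positive and 1.57% negative), 677 without the low count filter and 12 with RLE factors. It was 0 without WT library 1, Akita library 1 or Akita library 2, 1 without WT library 2, 3 without double mutant library 2, 19 without Tet2+/- library 2, 32 without double mutant library 1 and 350 without Tet2+/- library 1, where the lone library of the reduced group is assumed to vary like the others.

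The 4 negative calls had in common that, among the libraries numbered 1 and 2, the double mutant alone was low. Spib, a transcription factor of the Ets family known from B cells and plasmacytoid dendritic cells (chr7:44525993-44532071, minus strand), was at 44.3, 37.8 and 45.6 CPM in WT, 61.9, 81.0 and 42.2 in Tet2+/-, 37.6 and 43.9 in Akita and 10.4, 7.45 and 4.24 in the double mutant. Every double mutant library lay below every other library. Akita minus WT was -0.01 log2 units over the libraries numbered 1 and 2, and the double mutant minus Tet2+/- was -2.999. The interaction was -2.99 (SE 0.29) there (adjusted p = 0.0194) and -2.999 (SE 0.49) over all libraries (adjusted p = 0.401). Mybpc2, a gene of the myosin-binding protein C family best known from fast skeletal muscle, starts 1336 bases after the end of Spib on the same strand of chromosome 7 (chr7:44501699-44524656, minus strand). It was at 2.72, 3.08 and 0.907 CPM in WT, 5.73, 6.52 and 2.32 in Tet2+/-, 3.32 and 2.49 in Akita and 0.30, 0.248 and 0.253 in the double mutant, so its double mutant libraries, with 6, 5 and 4 counts, were again below the rest. Its interaction was -4.45 (SE 0.44) over the libraries numbered 1 and 2 (adjusted p = 0.0194) and -4.52 (SE 0.80) over all libraries. Whether reads that run past the end of Spib were counted to Mybpc2 was not tested. Mybpc2, Cdk18 and Eps8l1 also overlap a predicted gene on the other strand, and the use of strand in counting is not given in the sources used here.

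Akap12, a scaffold that binds protein kinase A and protein kinase C (chr10:4266380-4359470, plus strand), was at 14.4, 16.3 and 12.1 CPM in WT, 19.1, 22.2 and 13.7 in Tet2+/-, 15.2 and 20.8 in Akita and 2.25, 1.54 and 0.823 in the double mutant. The other 8 libraries spanned 12.1 to 22.2 CPM, and the 3 double mutant libraries did not reach that range. Its interaction was -3.67 (SE 0.34) over the libraries numbered 1 and 2 (adjusted p = 0.0194) and -3.90 (SE 0.53) over all (adjusted p = 0.399). H2-Aa, the alpha chain of the MHC class II molecule I-A (chr17:34282744-34287823, minus strand), was at 213, 191 and 78.0 CPM in WT, 247, 266 and 55.5 in Tet2+/-, 153 and 149 in Akita and 62.6, 62.9 and 31.3 in the double mutant. In each group with a library numbered 3, that library was the lowest, and within the numbers 1 and 2 the double mutant was below all others. The interaction of H2-Aa was -1.61 (SE 0.17) over the libraries numbered 1 and 2 (adjusted p = 0.0204) and -1.77 (SE 0.84) over all, where the larger error left it uncalled (adjusted p = 1.0).

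The 3 positive calls were of different shapes. Cdk18, a cyclin-dependent kinase of the PCTAIRE group (chr1:132112237-132139684, minus strand), was at 21.5, 23.8 and 1.93 CPM in WT, 16.9, 15.1 and 0.917 in Tet2+/-, 21.3 and 21.7 in Akita and 69.3, 72.7 and 8.93 in the double mutant. The double mutant was the highest group among the libraries numbered 1 and 2, and its library numbered 3 was also above the other libraries of that number, all of which were low. The interaction was 2.22 (SE 0.19) over the libraries numbered 1 and 2 (adjusted p = 0.0194) and 1.75 (SE 1.64) over all. Fcnb, a ficolin of immature neutrophils and monocytes that binds microbial sugars (chr2:28076378-28084885, minus strand), was at 374, 344 and 5.98 CPM in WT, 29.9, 21.5 and 0.386 in Tet2+/-, 440.0 and 316 in Akita and 306, 497 and 10.4 in the double mutant. Here Tet2+/- was the low group, and the double mutant numbered 1 and 2 was near WT and Akita. Tet2+/- minus WT was -3.80 log2 units over the libraries numbered 1 and 2 and the double mutant minus Akita 0.09, giving an interaction of 3.89 (SE 0.39) (adjusted p = 0.0194) and of 3.33 (SE 2.40) over all libraries.

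Eps8l1, an adaptor related to the actin regulator Eps8 (chr7:4460674-4480487, plus strand), had 1, 0 and 1 counts in Tet2+/-, against 98, 82 and 170 in WT, 95 and 102 in Akita and 81, 63 and 0 in the double mutant. The double mutant library numbered 3 thus resembled Tet2+/- and its other libraries WT and Akita. Over the libraries numbered 1 and 2 the double mutant was at 136 times Tet2+/-, with an exact 95% counting interval of 24.1 to 5426, since Tet2+/- gave 1 count there. The fitted interaction of 6.55 (SE 0.69) (adjusted p = 0.0204) rests on that count and is no bound.

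**Figure D1:**
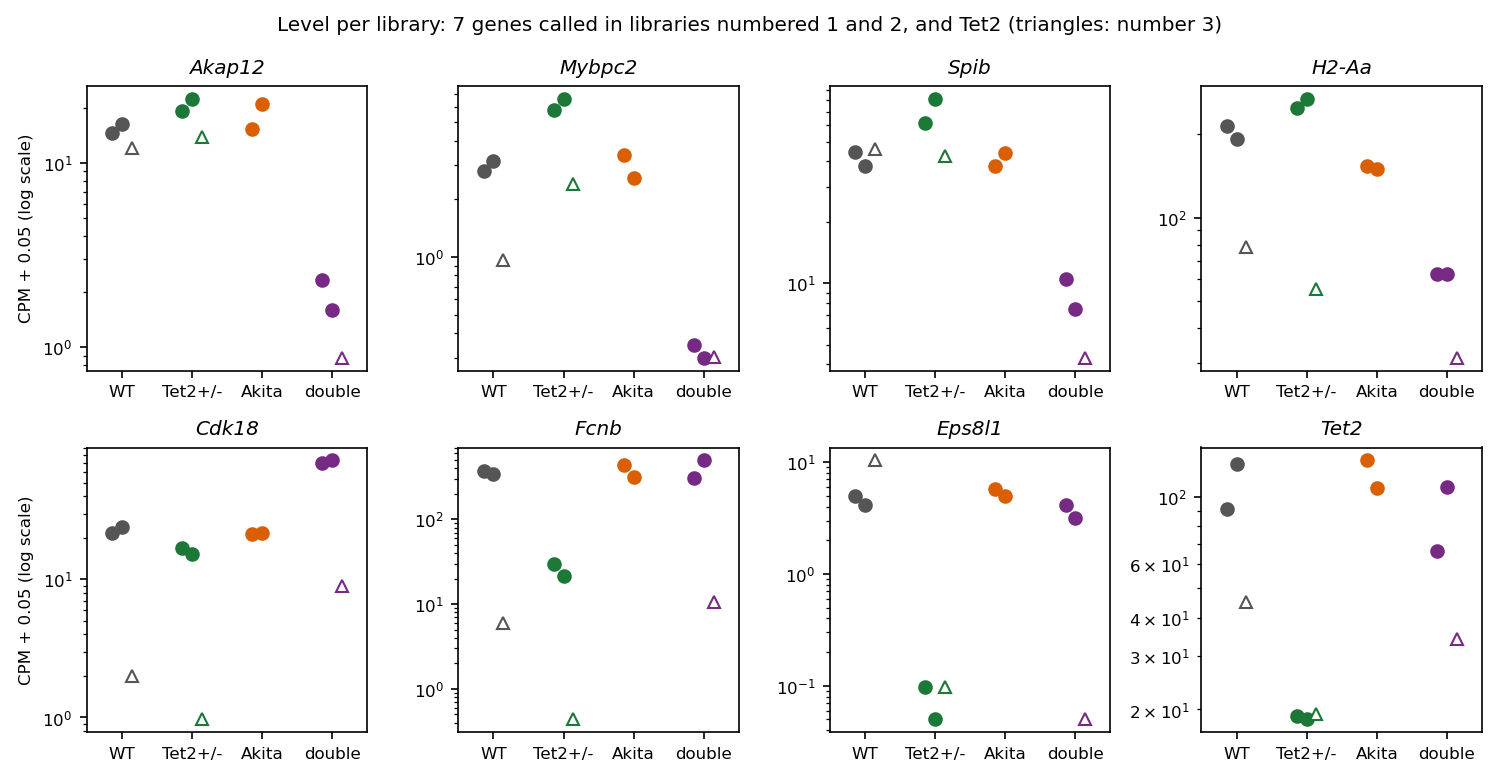
Level of the 7 called genes and of Tet2 in each library, as CPM plus 0.05 on a log axis, for WT, Tet2+/-, Akita and the double mutant. Filled circles are the libraries numbered 1 and 2 and open triangles those numbered 3. In Akap12, Mybpc2 and Spib all 3 double mutant libraries lie below the other 8, and in Fcnb and Eps8l1 Tet2+/- is the low group.

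The Akita allele was read on each Tet2 background within the same fit. Against WT it gave 0 calls over all libraries and 0 over the libraries numbered 1 and 2 (0% in each), with 67 genes (0.429%) and 102 genes (0.676%) at an unadjusted p under 0.05. The double mutant against Tet2+/- gave 41 calls over all libraries (0.262%), 13 higher (0.0832%) and 28 lower (0.179%), and 1163 over the libraries numbered 1 and 2 (7.71%), 585 higher (3.88%) and 578 lower (3.83%). The Tet2 label gave 4 calls against WT over all libraries (0.0256%) and 22 over the libraries numbered 1 and 2 (0.146%), and on the Akita background 6 (0.0384%) and 436 (2.89%). These comparisons share libraries in pairs, and passing on one background and not on the other is not a difference between backgrounds: that difference is the interaction, with its 0 and 7 calls.

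**Figure D2:**
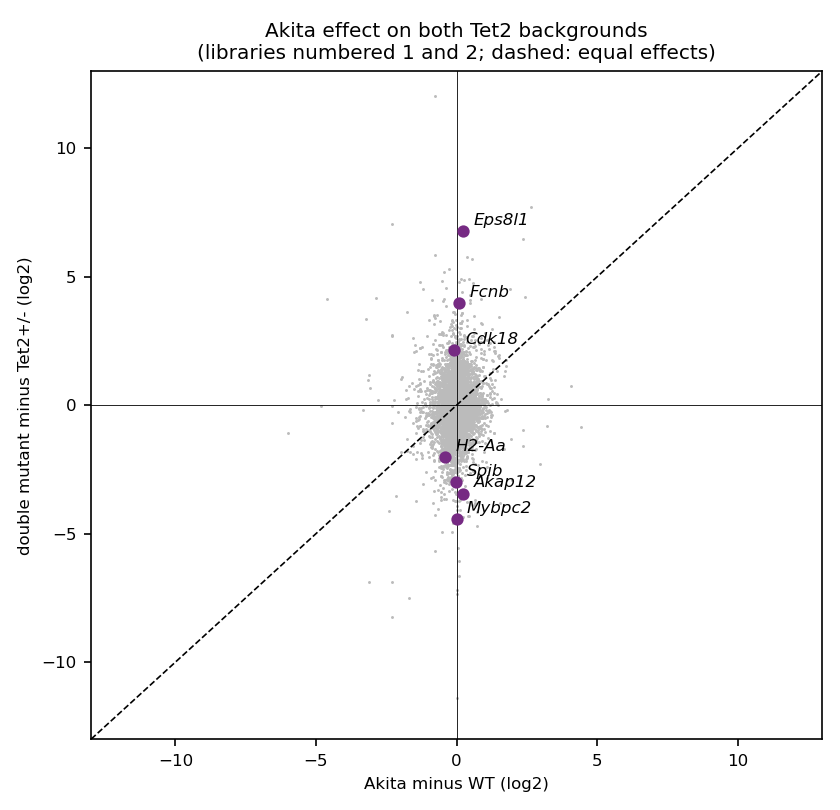
Log2 difference of Akita from WT (horizontal) against that of the double mutant from Tet2+/- (vertical), over the libraries numbered 1 and 2, with 1 grey point per gene tested. The 7 called genes are in purple, and the dashed line marks equal effects; these 7 lie between -0.42 and 0.24 on the horizontal axis and farther from 0 on the vertical axis.

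A departure was named synergistic where the double mutant was farther from WT, in absolute log2 units, than the sum of the 2 single differences, and opposing where it was nearer. Direction was ignored, so a synergistic gene need not move the way of the single mutants. For Akap12 that sum was 0.70 over all libraries and the double mutant minus WT was -3.20. Among all genes tested 57.3% were synergistic over all libraries and 56.7% over the libraries numbered 1 and 2, which is the background for what follows. Of the 537 genes at an unadjusted p under 0.05 over all libraries, 375 were synergistic (69.8%), 167 of the 279 positive (59.9%) and 208 of the 258 negative (80.6%). Over the libraries numbered 1 and 2 these were 1374 of 1937 (70.9%), 701 of 1059 positive (66.2%) and 673 of 878 negative (76.7%). The pattern and the p come from the same fitted group means, so choosing genes by p can by itself shift these shares. Their distance from the background was not tested. Of the 7 called genes 5 were synergistic, and Fcnb and Eps8l1 were opposing. In all 7, additivity of mean CPM in place of log2 levels gave the same sign.

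**Figure D3:**
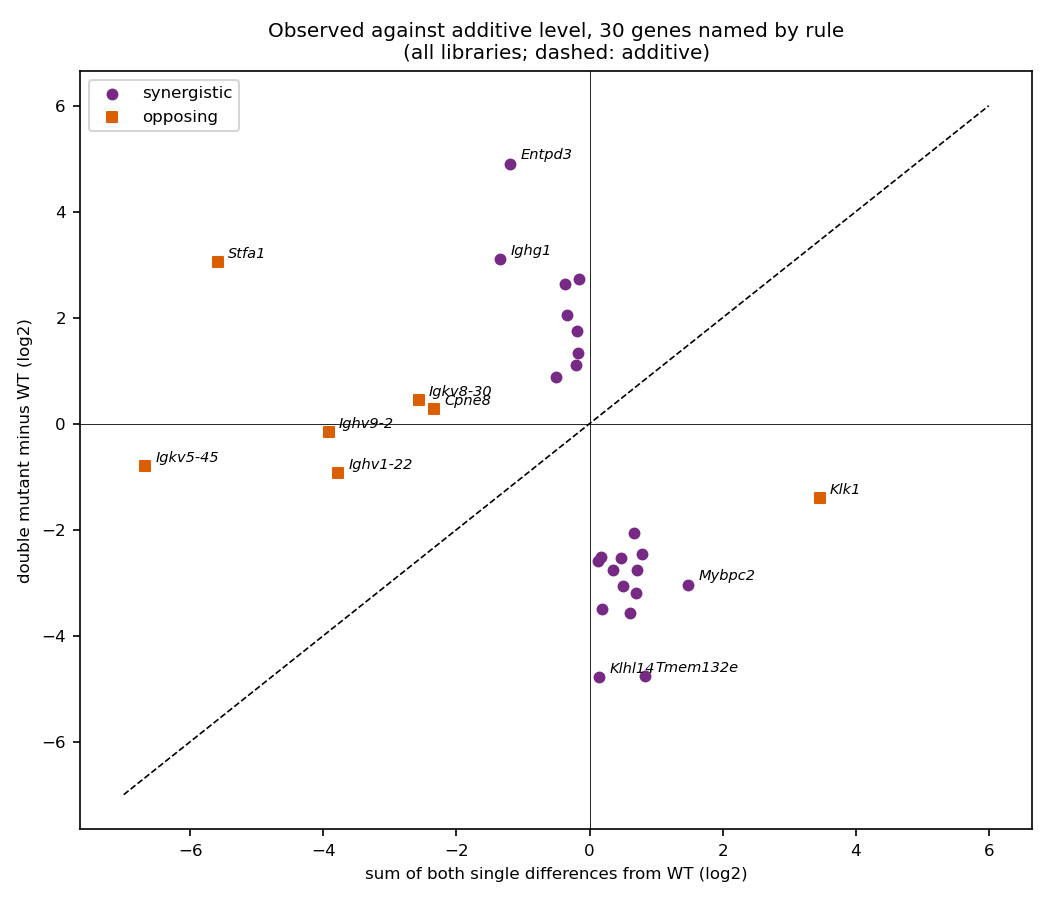
Sum of the 2 single differences from WT (horizontal) against the difference of the double mutant from WT (vertical), both in log2 units over all libraries, for the 15 positive and 15 negative interactions of smallest p. Circles are synergistic and squares opposing departures, and the dashed line marks additivity. None of the 30 passed the test over all libraries.

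B lineage genes had the lowest median interaction among the cell type lists in both sample sets. Of 20 tested, 18 had a negative interaction over all libraries, with a median of -2.26 against -0.02 for all genes tested. At an unadjusted p under 0.05 were 12 of the 20, all negative (1.65% of all genes), and in 14 every double mutant library was below every other library (3.49% of all genes). Over the libraries numbered 1 and 2 the median was -2.60, 16 were negative at an unadjusted p under 0.05 (5.82% of all genes) and 16 had the double mutant below all others (15.4%). None passed at an adjusted p under 0.05 by edgeR in either set. DESeq2 called 8 over all libraries and 10 over the libraries numbered 1 and 2, all negative (0.21% and 1.57% of the genes it adjusted). Leaving out any 1 of the 11 libraries kept the median over the rest between -2.50 and -1.82.

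Ebf1, which starts the B cell program, was at 14.8, 14.5 and 8.88 CPM in WT, 21.7, 26.1 and 11.6 in Tet2+/-, 12.3 and 14.7 in Akita and 2.55, 1.09 and 1.96 in the double mutant. Pax5, which commits cells to that lineage, was at 28.0, 26.9 and 17.4 CPM in WT, 35.4, 40.1 and 23.6 in Tet2+/-, 25.01 and 28.9 in Akita and 3.10, 0.497 and 2.47 in the double mutant. In both genes the double mutant libraries did not overlap the other 8, and 2 of the 3 Tet2+/- libraries were above every WT library. Their interactions over the libraries numbered 1 and 2 were -3.59 (SE 0.44) for Ebf1 and -4.36 (SE 0.73) for Pax5, with edgeR adjusted p of 0.0536 and 0.0752. Over all libraries they were -3.48 and -4.19. Igll1, which pairs with the heavy chain in pre-B cells in place of a light chain, was at 0.348 to 0.651 CPM in the double mutant and 2.36 to 6.35 elsewhere. Blk, a Src family kinase of B cells, was at 1.04 to 2.103 against 7.61 to 16.0 CPM, and Fcrla, an Fc receptor-like protein of B cells, at 1.46 to 2.58 against 7.91 to 19.0 CPM. Rag1, which cuts antigen receptor genes for their assembly, had 0.901, 0.0497 and 0.190 CPM in the double mutant and 5.38 to 17.5 elsewhere. The 2 members with a positive interaction were Btk and Syk, kinases that myeloid cells also use. In 8 of the 11 libraries they held more of the list's summed level than the other members together, and without them it was 92.7 to 142 CPM in the double mutant and 279 to 552 in the other 8 libraries. In bulk RNA, fewer cells of a type and less RNA per cell cannot be told apart.

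Genes outside that list followed a like course, of which Chst3, Fam129c and Klhl14 had been called for the double mutant against WT in earlier results of these data. Chst3, an enzyme that adds sulfate to chondroitin chains, was at 18.0, 14.1 and 12.3 CPM in WT, 17.0, 15.3 and 14.7 in Tet2+/-, 13.6 and 18.2 in Akita and 1.90, 0.547 and 1.46 in the double mutant, and Fam129c, a gene of B cells that overlaps Pgls on the same strand, at 26.2, 22.7 and 31.1 CPM in WT, 24.7, 48.1 and 34.0 in Tet2+/-, 19.998 and 24.8 in Akita and 5.11, 4.57 and 4.24 in the double mutant. Klhl14, a gene of the Kelch-like family, had 2, 1 and 0 counts in the double mutant and 1.06 to 2.61 CPM elsewhere, so that Tet2+/- was at 36.5 times the double mutant (exact 95% counting interval 12.2 to 180.0). The interactions over all libraries were -3.69 (SE 0.57) for Chst3 and -2.69 (SE 0.40) for Fam129c, with adjusted p of 0.401 and 0.399. Bach2, a transcriptional repressor expressed in B and T cells, was at 4.12 to 8.66 CPM in the double mutant and 18.4 to 38.9 elsewhere. The list of 18 early lymphoid genes, which holds Ebf1, Rag1, Spib and Bach2, had 16 negative members in each set, with medians of -1.43 over all libraries and -1.27 over the libraries numbered 1 and 2. Gfra1, a receptor subunit for glial cell line-derived ligands, was at 0.298 to 0.887 against 2.96 to 6.46 CPM, and Rpgrip1, a protein of cilia, at 4.61 to 5.45 against 11.7 to 17.6 CPM.

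Dendritic cell genes were negative in 16 of 18 tested in each set, with medians of -1.43 and -1.49. Negative at an unadjusted p under 0.05 were 10 over all libraries (1.65% of all genes) and 16 over the libraries numbered 1 and 2 (5.82%). None was called by edgeR, against 2 (0.21%) and 12 (1.57%) by DESeq2. Siglech, a lectin of plasmacytoid dendritic cells, was at 74.8, 58.7 and 57.5 CPM in WT, 101, 150.1 and 43.5 in Tet2+/-, 49.3 and 57.0 in Akita and 21.9, 19.2 and 12.1 in the double mutant. Ly6d, which marks lymphoid progenitors with B and dendritic cell potential, was at 49.6, 50.8 and 50.5 CPM in WT, 50.1, 113 and 39.2 in Tet2+/-, 51.1 and 48.7 in Akita and 17.2, 14.4 and 19.1 in the double mutant. In both genes the double mutant libraries lay below all others, with interactions over the libraries numbered 1 and 2 of -2.28 (SE 0.30) and -2.35 (SE 0.46). Pacsin1, an endocytic adaptor of plasmacytoid dendritic cells, was at 1.65 to 2.68 CPM in the double mutant and 3.93 to 13.9 elsewhere. Klk1, a kallikrein protease that was placed on this list, was of another shape: 11.9, 17.0 and 8.88 CPM in Tet2+/-, 1.01, 1.79 and 1.09 in WT, 2.11 and 0.864 in Akita and 0.10, 0.497 and 0.887 in the double mutant. There Tet2+/- alone was high, and the departure was opposing, at -4.87 (SE 0.93) over all libraries (adjusted p = 0.412). The summed level of the dendritic cell list was 366 to 498 CPM in the double mutant and 667 to 1422 CPM in the other libraries.

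All 10 MHC class II genes tested had a negative interaction in each set. The median was -1.31 over all libraries and -1.60 over the libraries numbered 1 and 2, where each of the 10 was negative at an unadjusted p under 0.05 (5.82% of all genes) and had the double mutant below all others (15.4%). Over all libraries 3 of the 10 had such a p (1.65%) and 1 had the double mutant below all others (3.49%). H2-Aa was the one called by edgeR, over the libraries numbered 1 and 2. DESeq2 called 0 over all libraries and 6 over the libraries numbered 1 and 2, all negative (1.57% of the genes it adjusted). The median over all libraries was -0.72 without Tet2+/- library 2. H2-Eb1, the beta chain of I-E, was at 113, 111 and 44.2 CPM in WT, 137, 185 and 34.5 in Tet2+/-, 82.8 and 86.0 in Akita and 39.7, 32.4 and 23.6 in the double mutant. Cd74, the invariant chain that guides class II molecules, was at 513, 503 and 269 CPM in WT, 586, 887 and 192 in Tet2+/-, 421 and 413 in Akita and 209, 196 and 144 in the double mutant. Both were low in every library numbered 3, and both had the double mutant as the lowest group within each number. Their interactions over the libraries numbered 1 and 2 were -1.75 (SE 0.24) and -1.58 (SE 0.27), with adjusted p of 0.0606 and 0.0682. Ciita, the co-activator that switches class II genes on, was at 1.55 to 2.47 CPM in the double mutant and 3.87 to 8.90 CPM elsewhere, an interaction of -1.85 (SE 0.50) over the libraries numbered 1 and 2 (adjusted p = 0.172). Class II genes are expressed by B cells and dendritic cells, whose lists were also on the negative side. The part of those cells in the class II values was not tested.

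The sequences before the starts of 3 class II genes are shown because all members of the list were on the negative side, and promoters of the class II chains are known for an element, the Y box, which reads GATTGG and holds an inverted CCAAT. They are the 250 bases before the start of each gene, from RefSeq on GRCm38.p6, written 5′ to 3′ along the gene's own strand: chr17:34287824-34288073 on the minus strand for H2-Aa, chr17:34305617-34305866 on the plus strand for H2-Eb1 and chr17:34092129-34092378 on the plus strand for H2-Oa. Capitals mark GATTGG, or its reverse complement.
H2-Aa: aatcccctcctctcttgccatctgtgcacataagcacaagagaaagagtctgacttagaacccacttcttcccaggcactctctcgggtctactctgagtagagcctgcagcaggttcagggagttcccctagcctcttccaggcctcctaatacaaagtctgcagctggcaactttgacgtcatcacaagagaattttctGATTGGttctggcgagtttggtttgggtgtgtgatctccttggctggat
H2-Eb1: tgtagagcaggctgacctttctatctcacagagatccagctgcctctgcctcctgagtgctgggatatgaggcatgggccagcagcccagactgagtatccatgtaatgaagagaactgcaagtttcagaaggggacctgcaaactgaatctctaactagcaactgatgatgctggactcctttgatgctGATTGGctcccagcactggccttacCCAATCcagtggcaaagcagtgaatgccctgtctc
H2-Oa: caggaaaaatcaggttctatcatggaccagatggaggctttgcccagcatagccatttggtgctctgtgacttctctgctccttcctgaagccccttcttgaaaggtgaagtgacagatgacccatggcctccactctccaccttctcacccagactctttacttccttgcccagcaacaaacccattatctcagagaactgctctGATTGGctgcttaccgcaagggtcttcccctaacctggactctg
GATTGG was searched on both strands of windows of 300 bases, 250 before and 50 after each start. It stood in 7 of the 8 windows of the 7 class II genes searched, and in 16.1% of all 32851 windows. In H2-Aa it began 49 bases before the start, in H2-Eb1 60 and in H2-Oa 44, and H2-Eb1 held another match on the other strand at 35. A match is a run of letters and not a measured site, and 3 genes of the list had no window.

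T and NK cell genes were negative in 22 of 25 tested over all libraries and in 24 over the libraries numbered 1 and 2, with medians of -1.55 and -1.41. Negative at an unadjusted p under 0.05 were 11 (1.65% of all genes) and 16 (5.82%), with none called by edgeR and 0 and 9 (1.57%) by DESeq2. The double mutant was below all other libraries in 8 of the 25 over all libraries (3.49% of all genes) and in 20 over the libraries numbered 1 and 2 (15.4%). The summed levels of the list overlapped, at 317 to 560 CPM in the double mutant, 358 in WT library 3 and 381 in Tet2+/- library 3. Cd3e, a signalling chain of the T cell receptor complex, was at 10.8, 7.31 and 5.50 CPM in WT, 9.42, 13.5 and 9.41 in Tet2+/-, 8.16 and 10.3 in Akita and 3.96, 3.28 and 3.80 in the double mutant. Cd8a, the co-receptor of cytotoxic T cells, was at 21.8, 12.4 and 7.37 CPM in WT, 13.4, 21.5 and 13.7 in Tet2+/-, 14.4 and 19.2 in Akita and 6.46, 6.41 and 3.04 in the double mutant. Trbc1, a constant region of the T cell receptor beta chain, was at 2.29 to 5.36 CPM in the double mutant and 7.01 to 31.1 CPM elsewhere. In these 3 genes the double mutant was below all other libraries. The interactions over all libraries were -1.77 (SE 0.46) for Cd3e, -1.89 (SE 0.65) for Cd8a and -2.18 (SE 0.75) for Trbc1.

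Genes of maturing neutrophils were on the positive side without exception: 26 of 26 in each set, with medians of 1.28 over all libraries and 1.21 over the libraries numbered 1 and 2. Over all libraries 5 of them were at an unadjusted p under 0.05 (1.79% of all genes), and in 23 the double mutant was above all other libraries (5.04%). Over the libraries numbered 1 and 2 these were 17 (7.02%) and 26 (15.4%). None was called by edgeR, and DESeq2 called 1 over all libraries, Mmp25, and 8 over the libraries numbered 1 and 2. Of all genes it adjusted, 0.225% and 2.16% were called positive. Mmp25, a membrane-bound metalloproteinase of neutrophils, was at 26.1, 27.5 and 6.59 CPM in WT, 13.7, 6.40 and 6.28 in Tet2+/-, 40.8 and 19.96 in Akita and 89.4, 156 and 108 in the double mutant. Cxcr2, the chemokine receptor by which neutrophils leave marrow, was at 17.0, 22.6 and 14.99 CPM in WT, 22.3, 18.6 and 15.8 in Tet2+/-, 29.8 and 12.8 in Akita and 44.4, 114 and 201 in the double mutant. Mmp9, the gelatinase of their tertiary granules, was at 169.6, 217 and 72.7 CPM in WT, 259.7, 179 and 99.1 in Tet2+/-, 323 and 113 in Akita and 564, 1258 and 1343 in the double mutant. The double mutant libraries lay above the rest in all 3, with a spread of more than 2-fold among themselves in Cxcr2 and Mmp9. Interactions over the libraries numbered 1 and 2 were 3.42 (SE 0.65) for Mmp25, 1.85 (SE 0.72) for Cxcr2 and 1.88 (SE 0.76) for Mmp9. Ifitm6, a membrane protein of myeloid cells, was at 223, 490.2 and 1191 CPM in the double mutant and 13.5 to 96.0 elsewhere. The summed level of the list was 56833 to 85794 CPM in the double mutant, 19767 to 37536 in Akita, 3704 to 35935 in Tet2+/- and 2793 to 28676 in WT. It was highest in the double mutant, where the dendritic list was lowest, and lowest in WT library 3 and Tet2+/- library 3. In these 2 libraries the T and NK cell list was low too (358 and 381 CPM). The dendritic list was at 1056 CPM in the first, the highest of the WT libraries, and at 667 CPM in the second, the lowest of the Tet2+/- libraries. The part of the maturing neutrophil list in the lymphoid and dendritic results was not tested. The median over all libraries was 0.83 without Tet2+/- library 3 and 1.94 without Akita library 1.

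All 9 genes of primary granules, which form earlier, were positive, with 0 and 6 at an unadjusted p under 0.05 (1.79% and 7.02% of all genes) and Fcnb called over the libraries numbered 1 and 2. Their medians were 0.53 and 0.72. Leaving out 1 library put the first of these between 0.00 and 1.02, the lowest without Tet2+/- library 3. The stefin A genes, inhibitors of cysteine proteases that mouse neutrophils express, had the highest medians of any list, 6.87 and 4.93, with 7 of 7 positive. With genes that a group left at 0 set to the level of 3 counts, these medians were 6.08 and 4.58. Without double mutant library 3 the first was 4.53. Stfa3 was at 0.956, 0.697 and 0.121 CPM in WT, 0.284, 0.415 and 0.0965 in Tet2+/-, 0.604 and 0.672 in Akita and 5.11, 11.5 and 89.5 in the double mutant, and BC100530 at 1.91, 0.547 and 0.181 CPM in WT, 2.18, 1.07 and 1.06 in Tet2+/-, 1.03 and 0.768 in Akita and 22.3, 35.2 and 237 in the double mutant. Every double mutant library was above every other, and the library numbered 3 was the highest of all. Interactions over the libraries numbered 1 and 2 were 4.93 (SE 0.72) for Stfa3 and 4.58 (SE 0.81) for BC100530, with adjusted p of 0.0629 and 0.0752. Stfa1 had 0, 0 and 4 counts in Tet2+/-, 118, 42 and 9 in WT, 28 and 61 in Akita and 156, 927 and 276 in the double mutant. These genes are near-identical copies, so how reads were shared between them is uncertain.

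Fc gamma receptors, the phagocyte oxidase and schlafen genes were 3 further lists of myeloid cells, none with an edgeR call in either set without the block. Fcgr4, an activating receptor for IgG, was at 10.6, 9.0 and 4.23 CPM in WT, 7.15, 6.40 and 2.56 in Tet2+/-, 13.3 and 6.53 in Akita and 69.5, 44.0 and 32.6 in the double mutant. The double mutant exceeded all others, with an interaction of 3.06 (SE 0.48) over the libraries numbered 1 and 2 (adjusted p = 0.0629) and 2.87 (SE 0.77) over all, called there with the replicate number as a block. Of 6 Fc gamma receptor genes 5 were positive in each set, with medians of 0.79 and 0.88. The 6 subunits of the phagocyte NADPH oxidase, which makes superoxide, were all positive, with medians of 0.71 and 0.82. In each of the 6 the double mutant was above all other libraries in both sets (5.04% and 15.4% of all genes). Only 0 and 2 of them were at an unadjusted p under 0.05 (1.79% and 7.02% of all genes). Without Tet2+/- library 3 the medians over all libraries were 0.21 for the oxidase and 0.33 for the Fc gamma receptors. Slfn4, a schlafen gene of myeloid cells, was at 104, 131 and 29.9 CPM in WT, 53.6, 39.5 and 37.1 in Tet2+/-, 181 and 82.2 in Akita and 348, 723 and 488 in the double mutant. The 8 schlafen genes as a list were less uniform, with 6 positive and a median of 0.16 over all libraries, and 7 positive and 0.57 over the libraries numbered 1 and 2. The first was -0.07 without Tet2+/- library 2 and 0.73 without Tet2+/- library 3.

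Among 26 proinflammatory cytokine and NF-kB genes, 16 were positive over all libraries and 17 over the libraries numbered 1 and 2, with medians of 0.15 and 0.22. The first is close to the -0.02 of all genes and became -0.14 without double mutant library 2. At an unadjusted p under 0.05 were 2 over all libraries, both positive (1.79% of all genes). Over the libraries numbered 1 and 2 these were 7 positive (7.02%) and 2 negative (5.82%). DESeq2 called 4 there, Nfkbiz, Il6, Tnf and Tnfrsf1a. Of these, 3 were positive (2.16% of the genes it adjusted) and 1 was negative (1.57%). Tnf and Nfkbiz are shown from the positive side of that list. Tnf, a cytokine of activated myeloid cells, was at 50.4, 48.7 and 44.8 CPM in WT, 48.8, 51.6 and 34.7 in Tet2+/-, 52.3 and 38.1 in Akita and 91.3, 120.2 and 149.7 in the double mutant, and Nfkbiz, a nuclear regulator of NF-kB targets, at 261, 264 and 258 CPM in WT, 281, 227 and 208 in Tet2+/-, 254 and 245 in Akita and 498, 654 and 542 in the double mutant. Both had the double mutant above all others, while the other 3 groups overlapped. Interactions over all libraries were 1.505 (SE 0.36) and 1.31 (SE 0.28), with edgeR adjusted p of 0.806 and 0.538, and DESeq2 called both. Neat1, a long non-coding RNA that builds nuclear paraspeckles, was at 292, 245 and 237 CPM in WT, 192, 207 and 209 in Tet2+/-, 219 and 247 in Akita and 426, 532 and 461 in the double mutant, with an interaction of 1.37 (SE 0.27) over all libraries. Saa3, an acute-phase protein made by activated macrophages, was at 8.36 to 22.9 CPM in the double mutant and 0.0483 to 1.52 elsewhere. Clu, an extracellular chaperone, was at 12.8 to 30.3 against 1.74 to 4.17 CPM, and Snai1, a transcriptional repressor, at 7.81 to 8.30 against 1.03 to 3.53 CPM. Of 24 toll-like receptor and inflammasome genes 20 were positive in each set, with medians of 0.42 and 0.45, the first 0.09 without Tet2+/- library 3 and 0.98 without Tet2+/- library 1.

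**Figure D4:**
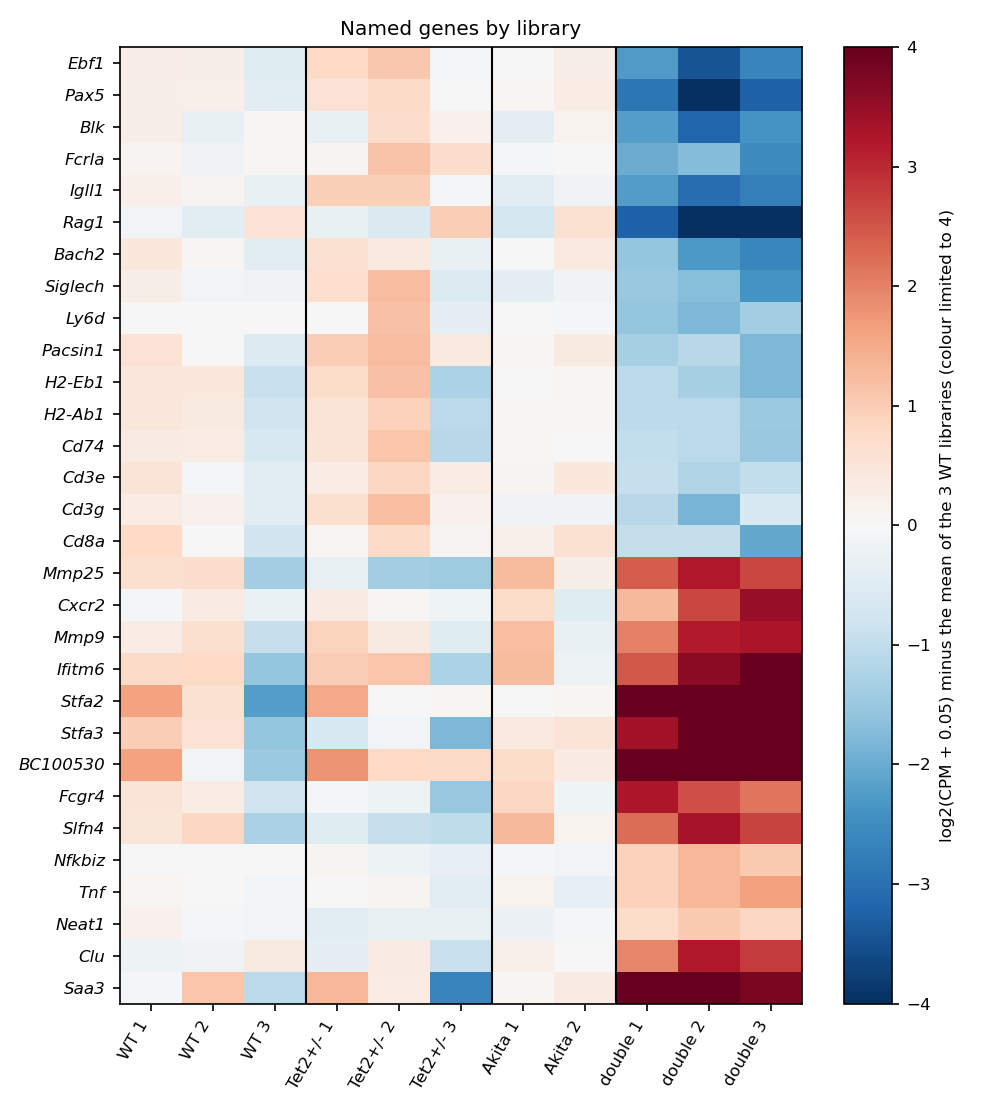
Level of 30 named genes (rows) in each of the 11 libraries (columns), as log2 of CPM plus 0.05 minus the mean of the 3 WT libraries, with colours limited to 4 log2 units either way. The 3 double mutant columns are blue for the lymphoid, dendritic and class II genes shown and red for the neutrophil, stefin and inflammatory genes shown. The 30 rows were picked, and list members with an interaction of the other sign, such as Btk and Syk, are not among them.

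Sugar metabolism, the pathway closest to the Akita phenotype, was read from 22 genes of glucose transport and glycolysis. Their median of Akita minus WT was 0.26 over all libraries and -0.02 over the libraries numbered 1 and 2, and that of the double mutant minus Tet2+/- was 0.74 and 0.53. Their median interaction was 0.59 (19 of 22 positive) and 0.56 (20 of 22). None was called by edgeR, with 2 (1.79% of all genes) and 6 (7.02%) positive at an unadjusted p under 0.05, and 0 and 1 (2.16%) called by DESeq2. Without Akita library 2 the median over all libraries was 0.32. Ldha, the lactate dehydrogenase subunit of glycolytic cells, was at 393, 407 and 527 CPM in WT, 394, 463 and 469 in Tet2+/-, 403 and 335 in Akita and 563, 788 and 852 in the double mutant. G6pdx, the entry enzyme of the pentose phosphate pathway that supplies NADPH, was at 124, 149.7 and 111 CPM in WT, 184, 137 and 126 in Tet2+/-, 192 and 111 in Akita and 250.4, 494 and 512 in the double mutant. In both genes the double mutant was above all other libraries, with interactions of 0.995 (SE 0.33) and 1.25 (SE 0.48) over all libraries. Lists near 0 in both sets were interferon-stimulated genes (0.04 and 0.02), insulin signalling and FOXO targets (-0.05 and 0.06), oxidative phosphorylation (0.02 and -0.09), DNA methylation enzymes (0.05 and -0.01) and the BCL2 family (0.01 and 0.10). Between these and the lists above were myeloid regulators (0.43 and 0.42), monocyte and macrophage genes (0.43 and 0.27), immediate early and AP-1 genes (0.51 and 0.21) and genes of the unfolded protein response (0.15 and 0.39). Over all libraries the first 2 of these became 0.06 and 0.11 without Tet2+/- library 3, the third 0.28 without double mutant library 3 and the fourth -0.10 without double mutant library 2. Cell cycle genes stood at -0.27 and 0.02, and chemokines with their receptors at -0.17 and -0.33. Over all libraries the first became 0.17 without Tet2+/- library 3, and the second turned positive without any of 5 libraries, up to 0.25 without Tet2+/- library 2.

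Antibody genes divided, with a list median of 0.40 and 0.72. Ighg1, the constant region of IgG1, was at 69.0, 43.0 and 27.6 CPM in WT, 13.4, 8.60 and 18.6 in Tet2+/-, 67.6 and 58.0 in Akita and 61.9, 613 and 529.9 in the double mutant. The double mutant libraries numbered 2 and 3 were high while the one numbered 1 was at the level of WT, so the groups overlapped, with an interaction of 4.45 (SE 1.09) over all libraries. Jchain, which joins secreted IgM and IgA, was at 1254, 822 and 831 CPM in WT, 601, 684 and 867 in Tet2+/-, 1279.6 and 692 in Akita and 1507, 1838 and 2129.6 in the double mutant, and here every double mutant library was above all others. Ighd, the constant region of IgD carried by naive B cells, was the reverse, at 0.894 to 5.51 CPM in the double mutant and 7.25 to 12.4 elsewhere. Among variable segments, Ighv2-9-1 was synergistic, with an interaction of 2.40 (SE 0.58) over all libraries and the double mutant above all others, while 4 others of the 30 strongest interactions were opposing. Of these, Igkv8-30 was at 20.6, 50.6 and 32.0 CPM in WT, 13.9, 13.3 and 15.5 in Tet2+/-, 18.5 and 9.55 in Akita and 46.4, 36.8 and 57.0 in the double mutant, with an interaction of 3.01 (SE 0.55) (adjusted p = 0.401), where both single mutants lay below all WT libraries and the double mutant overlapped WT. Of the 30 strongest interactions over all libraries, 7 were opposing. The others of these were Igkv5-45, Ighv1-22, Ighv9-2, Stfa1, Klk1 and Cpne8. Cpne8, a calcium-dependent membrane-binding protein, was at 0.290 to 0.711 CPM in Tet2+/-, 0.960 to 1.09 in Akita and 1.51 to 2.58 in WT and the double mutant together. Reck, a membrane inhibitor of matrix proteases, was at 13.4, 13.7 and 1.57 CPM in WT, 3.79, 5.93 and 1.45 in Tet2+/-, 15.9 and 11.9 in Akita and 21.2, 29.3 and 21.8 in the double mutant, an opposing departure of 2.35 (SE 0.37) over the libraries numbered 1 and 2. Some variable segments are near-identical copies of others, so the counts of these genes are uncertain.

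For several lists the sign depended on the libraries numbered 3. Basophil, mast cell and eosinophil genes had a median of 0.50 over all libraries and -0.88 over the libraries numbered 1 and 2. Their summed level was 7065 CPM in double mutant library 3 and 1355 and 2172 in the other 2, against 1442 to 4329.8 in the other groups. Cpa3, a mast cell protease, was at 63.6, 54.3 and 139.6 CPM in WT, 77.0, 67.3 and 41.8 in Tet2+/-, 62.9 and 56.3 in Akita and 24.5, 37.2 and 281 in the double mutant, and Fcer1a, the alpha chain of the IgE receptor, at 35.5, 27.3 and 99.1 CPM in WT, 45.1, 50.5 and 28.5 in Tet2+/-, 35.9 and 29.3 in Akita and 12.2, 19.9 and 181 in the double mutant. Both turned from 1.41 and 1.51 over all libraries to -1.24 and -1.62 over the libraries numbered 1 and 2, and edgeR called neither in either set. DESeq2 called both over the libraries numbered 1 and 2, with 4 further members of the list, all negative (1.57% of the genes it adjusted). Megakaryocyte and platelet genes went from 0.67 to -0.35, and stem and progenitor genes from 0.33 to -0.37. Mitochondrially encoded genes went from 1.23 to 0.02, and stood at -0.30 without double mutant library 3. Erythroid genes were at -1.12 and -1.03, but at 0.38 without Tet2+/- library 3, whose summed erythroid level was the highest at 14907 CPM. The lymphoid, dendritic, class II, maturing neutrophil and stefin lists kept their sign in both sets and with each library left out.

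**Figure D5:**
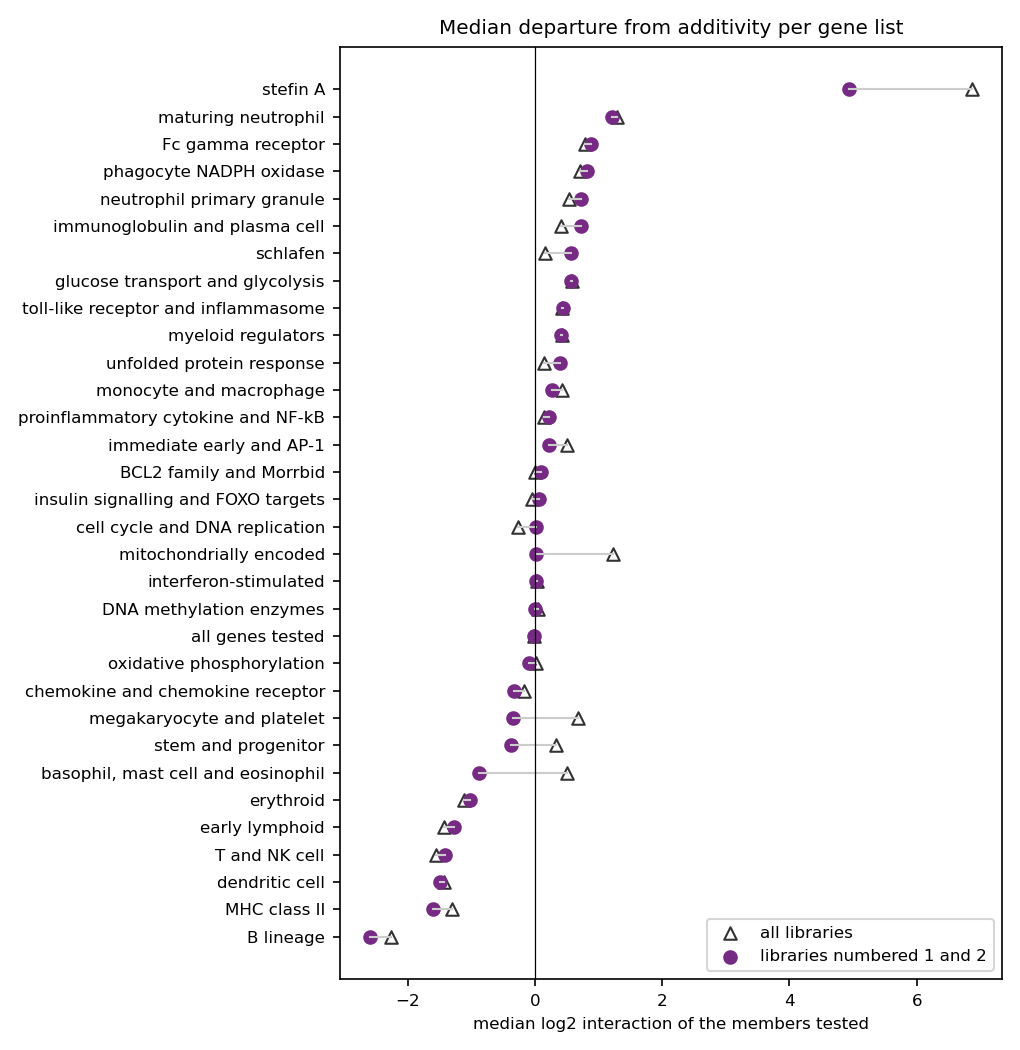
Median log2 interaction of the tested members of each gene list, over all libraries (open triangles) and over the libraries numbered 1 and 2 (filled circles), ordered by the latter. B lineage genes lie lowest, at -2.26 and -2.60, and stefin A genes highest, at 6.87 and 4.93; basophil, megakaryocyte and stem cell lists change sides.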

How the data were processed

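The authors deposited 1 table of whole-number read counts for the series, with 1 value per gene and library and no normalisation, per the file headers and values. The submitters' processing notes name bcl2fastq, Trimmomatic 0.32, TopHat2 2.1.1 and GRCm38. The program that counted reads, the annotation behind it and its handling of strand are not stated in the labels, so values of overlapping genes, antisense genes and pseudogenes are uncertain. Names came from a table that 30875 of the 31060 identifiers matched without their version (25042 with it), and positions from GENCODE M21. Double mutant sample 4 was not analysed here, and 1 column of per-sample values, named in the style of an Akita library numbered 3, matched no label and was left unused. Whether it holds the sample not analysed cannot be told from the labels. The closest pair of libraries within a group still differed beyond sampling noise (chi-square of 17.2 per gene).

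edgeR 4.0.16 in R 4.3.3 gave the tests: filterByExpr (minimum count 10), TMM factors, 1 fit of 4 group means without covariates, glmQLFit (robust=TRUE) and glmQLFTest of the interaction, with Benjamini-Hochberg adjustment over all genes tested and a threshold of 0.05. Limma voom (3.58.1) and DESeq2 1.42.0 were alternatives, as were RLE and upper quartile factors, no filter, a filter at a mean of 5 CPM, a replicate block, robust=FALSE, leaving out each library and additivity of mean CPM. Scripts were tested on simulated data. Members and gene lists were chosen with earlier results of these data known. The text names Tet2, the 15 positive and 15 negative interactions of smallest p in each set (mean of 1 CPM or more, leaving out predicted genes with Gm or Rik symbols), up to 4 members per list by smallest p, counts of 5 or fewer in full and genes called earlier. Btk and Syk were named after their values were seen, and 1 gene that the rule names is not reported here. Intervals, and levels of 3 counts, cover counting error only.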

Additional observations from a re-analysis of the deposited data

Results flagged for a closer look

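The Akita effect differed between the WT and Tet2+/- backgrounds, by the test of the interaction itself, for 7 genes over the libraries numbered 1 and 2. With the replicate block in those libraries the count was 0. For Fcnb and Eps8l1 it was Tet2+/- that was low, with the double mutant near WT and Akita in those libraries. The interaction was -3.67 (SE 0.34) for Akap12, -4.45 (SE 0.44) for Mybpc2, -2.99 (SE 0.29) for Spib and -1.61 (SE 0.17) for H2-Aa. It was 2.22 (SE 0.19) for Cdk18, 3.89 (SE 0.39) for Fcnb and 6.55 (SE 0.69) for Eps8l1, where Tet2+/- gave 1 count in these libraries. EdgeR adjusted p was 0.0194 for Akap12, Mybpc2, Spib, Cdk18 and Fcnb and 0.0204 for H2-Aa and Eps8l1. Over all libraries none of the 7 passed edgeR's test, while DESeq2 called Akap12, Spib and Mybpc2, and edgeR with the replicate block called Akap12 and Fcnb.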

How the results depend on the processing

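Over all libraries the count of called genes was 0 and stayed 0 with RLE or upper quartile factors, limma voom, a mean of at least 5 CPM, robust=FALSE and each library left out; it was 60 with DESeq2, 3 without the low count filter, 3 with the replicate block and 7 without the libraries numbered 3. Over the libraries numbered 1 and 2 the 7 calls became 12 with RLE factors, 509 with DESeq2, 677 without the filter and 0 with the replicate block, and 0 to 350 with 1 library left out; voom gave 8, a mean of at least 5 CPM 5, and upper quartile factors and robust=FALSE 7. Without the filter the median prior degrees of freedom of the fit were 319, against 4.33 with it. Deviations from group means correlated between libraries of the same number at 0.318 to 0.791 among WT, Tet2+/- and the double mutant. With Akita the correlations were -0.351 to 0.264. The means of WT, Tet2+/- and the double mutant include a library numbered 3, which by itself can tie the deviations of numbers 1 and 2. Akita had 2 libraries, whose deviations mirror each other. The correlations therefore cannot decide whether the numbers pair the groups, and the replicate block is given as an alternative only. Of 2599 values of 146 gene results under the alternatives, 14 were of the opposite sign, in 6 results: Cpa3, Fcer1a, Ms4a2 and Pcna-ps2 over all libraries and Gm9825 in both sets. For Cpa3 (-1.24) and Fcer1a (-1.62) without the libraries numbered 3, both values were more than 1 SE from 0 or 1 was called, which holds for none of the other 12; 194 passed newly and 44 no longer passed.

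With 1 library left out, the list medians over all libraries that turned sign with both values more than 0.1 from 0 ranged from -0.46 (without double mutant library 3) to 0.81 for basophil, mast cell and eosinophil genes, -0.61 to 0.25 (without Tet2+/- library 2) for chemokines and their receptors, -1.66 to 0.38 (without Tet2+/- library 3) for erythroid, -0.43 to 0.17 (without Tet2+/- library 3) for cell cycle, -0.14 (without double mutant library 2) to 0.46 for proinflammatory cytokine and -0.30 (without double mutant library 3) to 1.90 for mitochondrially encoded genes. The replicate block gave -0.12 for basophil and 0.24 for chemokine genes. Without the libraries numbered 3 the basophil median was -0.88, that of stem and progenitor genes -0.37 and that of megakaryocyte genes -0.35. Medians of stem and progenitor (-0.10), megakaryocyte (-0.09), schlafen (-0.07) and unfolded protein response genes (-0.10) crossed 0 by less with 1 library left out, as did lists whose reported median was within 0.1 of 0. RLE and upper quartile factors turned none by more than 0.1. The alternatives for lists were chosen after seeing the data, and the cause of these shifts was not tested. Levels near 3 counts, such as Mybpc2 and Klhl14 in the double mutant, limit what folds can be read.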
